A study of Saccharomyces cerevisiae with 7 samples.

Results

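Between 4 h and 5 h of meiosis, budding yeast cells that lack the cyclins Clb5 and Clb6 raised the mRNA of most middle sporulation genes, while nearly all genes of recombination and synapsis went slightly down from their highest level. The step was read as the log2 ratio of a gene at 5 h minus its log2 ratio at 4 h, for each open reading frame (ORF) with a value at both times. These were 5701 of the 6141 ORFs on the array. The study followed 1 meiotic course of the Clb5Delta-Clb6Delta mutant, with 1 array each at 1, 2, 3, 4, 5, 6 and 8 h, and both arrays of the step carry the same 2 deletions and differ only in time. Each array set poly(A) RNA of its time point against a mix of mRNA from the course, and the authors expressed the result relative to 0 h. The strain background, ploidy and sporulation medium are not given in the labels, and no wild-type course was analysed here. The last array has the title of an 8 h sample but the source name of a 6 h sample; its values are given as 8 h, after the title, and enter no difference.

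As background, meiotic genes of yeast are switched on in waves. The transcription factor Ime1 and the kinase Ime2 start the early wave, whose products pair and recombine the chromosomes. The transcription factor Ndt80 then starts the middle wave, which takes cells out of pachytene, through the 2 nuclear divisions and into spore formation. Sum1 represses many of the same middle genes until then. Late genes act on the outer layers of the spore wall. Clb5 and Clb6 are B-type cyclins of the kinase Cdc28 that are known for starting DNA replication before meiosis.

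With 1 array per time point there was no replicate at either end of the step, so no difference has an error or a p-value, and the number of arrays limits the precision. In what follows "rose" and "fell" mean a difference of at least 1 log2 unit (2-fold) up or down, with no test. The 0 h ratio and the mix are common to both arrays and cancel in the difference, which leaves the change between the times together with the error of both arrays. Because the arrays read RNA of a whole culture, a change in the share of cells at a stage and a change of mRNA per cell cannot be told apart.

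Over all ORFs with both values, 271 rose, or 4.75%, and 76 fell, or 1.33%. The median difference was -0.04 and the median absolute deviation 0.29. The rises were also the larger ones: 57 ORFs were at least 4-fold (2 log2 units) higher at 5 h and 4 were at least 4-fold lower, and the extremes were 3.28 and -2.22. In the step from 3 h to 4 h, 92 ORFs rose (1.59%) and 32 fell (0.554%). In the step from 5 h to 6 h, 124 rose (2.18%) and 18 fell (0.317%), so the step from 4 h to 5 h held more differences of that size in both directions than either neighbouring hour. Just inside the threshold lay the ORF YML095C-A at 1.0008 and RXT3 at 1.0015, just outside it ELA1 at 0.9979 and MRP20 at 0.9948. On the lower side RKM2 at -1.0071 and GSY2 at -1.0116 lay just inside, and YAR044W at -0.9929 and ADP1 at -0.9896 just outside.

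The array at 5 h stood apart in its low values before any gene group is considered. Of 5659 ORFs with values at 4, 5 and 6 h, 22 were at least 1 lower at 5 h than at both neighbouring times (0.389%), against 2 that were at least 1 higher than at both (0.0353%). The arrays at 2, 3, 4 and 6 h had 4, 3, 7 and 6 ORFs below both neighbours by as much. All 22 of the ORFs low at 5 h alone lie on chromosomes I to X by their systematic names. The median difference 5 h minus 4 h was -0.12 over 3064 ORFs of chromosomes I to X and 0.03 over 2637 ORFs of chromosomes XI to XVI. What part this plays in the differences below was not tested. List medians are given for both sets of chromosomes where they differ by over 0.2 and for the early and late genes. For the 3 middle lists they are given pooled and by list.

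The labels' deletions were read next. CLB5 had log2 ratios of 1.40, 0.30, -0.08, -0.51, 0.78, 0.74 and 1.20 at 1, 2, 3, 4, 5, 6 and 8 h, and so rose by 1.29 in the step. CLB6 stood at 0.77 at 5 h and -0.03 at 4 h, a difference of 0.81. Ratios to 0 h of one strain carry no level, so these values do not check the labels. CLB5 was thus called as a rise although the labels give it as deleted, and what its spot reads was not tested. CLB6 lies next to CLB1 and CLB5 next to CLB2, and the differences of those neighbours were 2.11 and 0.17. Which part of each gene the array reads is not given in the sources used here.

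NDT80, the activator of the middle wave, rose 3.54-fold in the step. It was the 1 member of 20 meiotic regulators that rose, or 5%, near the 4.75% of all ORFs, and none fell. Its log2 ratios were -0.56, -0.16, 1.28, 3.47, 5.29, 6.18 and 5.29 at 1, 2, 3, 4, 5, 6 and 8 h. The value was near its 0 h level at 1 and 2 h, and the largest hourly increases were those into 4 h and into 5 h. SUM1, its opponent at middle promoters, stood at 0.55 at 5 h and 0.32 at 4 h. HST1, the deacetylase that works with Sum1, stood at 2.09 at 5 h, against 1.60 at 4 h.

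The regulators of the early wave moved by less than 2-fold. IME1, the master activator of meiosis, stood at 0.99 at 5 h, against 1.45 at 4 h. IME2, the meiotic kinase, stood at 5.05 at 5 h and 5.27 at 4 h, and RIM4, a repressor of translation that Ime2 opposes, at 2.40 at 5 h and 3.08 at 4 h. SLZ1, a subunit of the complex that methylates meiotic mRNA, stood at 5.39 at 5 h, against 4.83 at 4 h, while IME4, the methyltransferase of that complex, stood at 1.20 at 5 h and 1.61 at 4 h. The median of the 20 regulators was -0.06, with opposite signs in the sets of chromosomes: -0.22 for 13 members on chromosomes I to X and 0.36 for 7 on chromosomes XI to XVI.

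**Figure D1:**
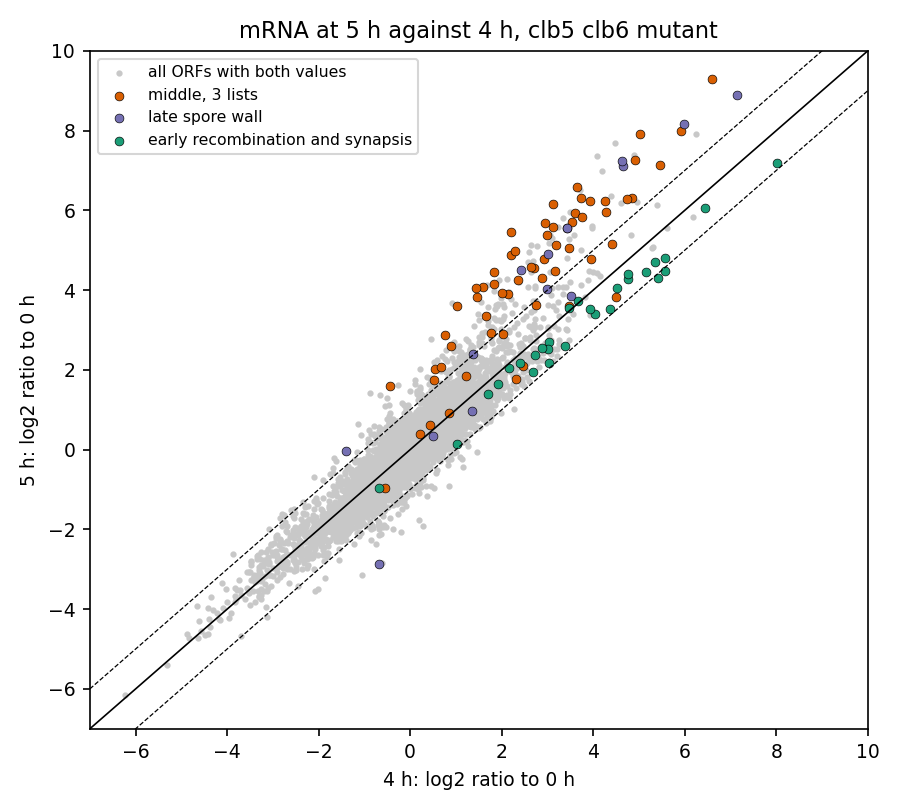
Log2 ratio to 0 h at 5 h (vertical axis) against the same at 4 h (horizontal axis) for 5701 ORFs, 1 point each, with middle genes in orange, late genes in purple and early genes in green; the solid line marks no difference and the dashed lines a difference of 1 up or down. Most of the 60 middle genes lie above the upper dashed line, and the 28 early genes with values lie along or below the solid line, most of them between it and the lower dashed line.

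Middle sporulation genes rose in the step, 47 of 60 members of 3 lists, and no member fell, against 4.75% of all ORFs that rose. Their median difference was 1.91, and the median log2 ratio of the lists lay between 4.15 and 4.93 at 5 h and between 2.64 and 3.21 at 4 h. Members that were not 2-fold higher ranged up from -0.67. On chromosomes I to X 23 of 29 members rose, with a median of 1.96, and on chromosomes XI to XVI 24 of 31 rose, with a median of 1.84. The pooled values were therefore alike in the 2 sets of chromosomes. By list, the medians on chromosomes I to X and XI to XVI were 2.11 and 1.89 for genes of the divisions. They were 1.68 and 1.59 for prospore membrane genes, and 2.68 (3 members) and 2.08 (9 members) for spore wall glucan genes.

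Among 25 genes of the divisions and of sporulation in general, 22 rose, with a median of 1.96. SPR6, a gene known from its expression in sporulation, rose most of the ORFs with a symbol. It stood at 0.54, 0.19, 0.97, 2.20, 5.45, 6.67 and 7.12 at 1, 2, 3, 4, 5, 6 and 8 h, which is 9.52-fold higher at 5 h than at 4 h. SGA1, the glucoamylase that breaks down glycogen in sporulating cells, stood at 1.32, 0.42, 0.91, 3.12, 6.16, 7.57 and 8.85 over the same times. The increase of SGA1 in the step was 8.23-fold, and its values kept rising in both later libraries. HXT14, of the hexose transporter family, stood at 6.58 at 5 h, against 3.64 at 4 h.

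The kinases and cyclins of the divisions were among the members that rose. CDC5, the polo kinase of pachytene exit, had 1.57, 1.19, 1.13, 3.48, 5.05, 5.61 and 6.42 at 1, 2, 3, 4, 5, 6 and 8 h. Its difference of 1.57 in this step followed a larger one into 4 h. SPS1, a kinase of prospore membrane closure, stood at 6.30 at 5 h and 3.73 at 4 h, and SMK1, the MAP kinase of spore wall assembly, at 4.05 at 5 h and 1.43 at 4 h. SSP2, an activator of Smk1, stood at 5.37 at 5 h, against 2.98 at 4 h. Of the B-type cyclins that the mutant still has, CLB1, CLB3 and CLB4 rose and CLB2 did not. CLB1 stood at 1.07, 0.60, -0.80, 0.76, 2.87, 3.76 and 3.84 at 1, 2, 3, 4, 5, 6 and 8 h, so that it had been below its 0 h level at 3 h. CLB4 stood at 4.77 at 5 h, against 2.93 at 4 h, and CLB3 at 2.59 at 5 h, against 0.88 at 4 h. CLB2, a cyclin of the mitotic divisions, stood at 0.92 at 5 h and 0.74 at 4 h. The members of this list that did not rise were SPL2, a regulator of phosphate uptake, at -0.97 at 5 h and -0.54 at 4 h, AMA1, the meiotic activator of the anaphase-promoting complex, at 5.16 at 5 h and 4.40 at 4 h, and YSW1, a prospore membrane protein, at 2.90 at 5 h and 2.02 at 4 h.

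Genes of the prospore membrane, the double membrane that grows around each nucleus, rose in 16 of 23 cases, with a median of 1.68. SPO19, a membrane-anchored prospore protein, had 5.59 at 5 h and 3.12 at 4 h, the largest difference of the list at 2.47. SPR3, a sporulation septin, stood at 0.01, -0.60, 2.12, 4.91, 7.25, 8.25 and 8.53 at 1, 2, 3, 4, 5, 6 and 8 h. Its partner septin SPR28 stood at 7.99 at 5 h, against 5.92 at 4 h. SMA2, needed for membrane assembly, stood at 5.94 at 5 h and 3.60 at 4 h, and SPO20, the SNARE of prospore vesicles, at 6.23 at 5 h and 3.93 at 4 h. The outer plaque of the meiotic spindle pole, where the membrane starts, was uneven: SPO74 stood at 7.13 at 5 h and 5.45 at 4 h, while MPC54 stood at 3.59 at 5 h and 3.48 at 4 h. Members with little difference also included NUD1, a spindle pole scaffold of dividing cells, at 0.39 at 5 h and 0.22 at 4 h. SPO1, related to phospholipases, was lower at 5 h, at 1.76 against 2.31 at 4 h.

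Genes of the spore wall glucan and mannan layers rose in 9 of 12 cases and had the highest median of the 25 lists, 2.12. SPS2, a wall protein, had the highest value of all named genes, with 0.89, 1.36, 3.64, 6.59, 9.29, 9.90 and 10.55 at 1, 2, 3, 4, 5, 6 and 8 h. SPR2 stood at 7.91 at 5 h and 5.03 at 4 h, 7.37-fold higher at 5 h. GAS2, a glucan-remodelling enzyme of the spore wall, stood at 4.99 at 5 h, against 2.28 at 4 h, and SPS22, a relative of SPS2, at 4.87 at 5 h, against 2.19 at 4 h. The members that did not rise were SRT1, which makes long-chain dolichols in spores, at 3.83 at 5 h and 4.50 at 4 h, SHC1, an activator of chitin synthase in sporulation, at 2.10 at 5 h and 2.47 at 4 h, and SPS4, at 0.93 at 5 h and 0.86 at 4 h. SRT1 and SHC1 had been high from 1 h and 2 h on, at 3.33 and 2.51.

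Most late spore wall genes rose in this step too: 10 of 14 with both values rose and 1 fell, against 4.75% and 1.33% of all ORFs. The median was 1.56, with 1.73 on chromosomes I to X and 1.39 on chromosomes XI to XVI. As a whole this list did not start later than the middle genes. Its median log2 ratio was 3.01, 4.27, 5.13 and 5.08 at 4, 5, 6 and 8 h, against 2.72, 4.52, 5.30 and 5.67 for the middle genes. The rises are therefore not read as the start of a separate late wave. IRC18, which rose, is also counted among the middle genes. CDA1, a chitin deacetylase of the wall, stood at 0.83, 0.14, 2.00, 4.62, 7.25, 7.66 and 7.88 at 1, 2, 3, 4, 5, 6 and 8 h. LOH1 stood at 7.11 at 5 h and 4.65 at 4 h, LDS1 at 8.16 at 5 h and 5.98 at 4 h, and DTR1, a transporter of dityrosine precursors, at 4.51 at 5 h and 2.41 at 4 h. DIT1, which makes those precursors, was near its 0 h level on both arrays, at 0.33 at 5 h and 0.50 at 4 h. It stood at 0.35 at 6 h and was high only at 8 h, at 3.01. CHS3, the chitin synthase, stood at 0.97 at 5 h and 1.36 at 4 h. SPS100, a marker of wall maturation, was the member that fell. Its values were -0.68, -0.57, -0.50, -0.68, -2.87, -0.91 and -0.08 at 1, 2, 3, 4, 5, 6 and 8 h, so it was low in the 5 h array alone. The ORF YHR139C-A beside it had a difference of -1.96.

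Early genes went the other way in sign and by a smaller amount. Of 28 genes of recombination and synapsis with both values, 26 were lower at 5 h than at 4 h, 2 of them by at least 1, and none rose. Among all ORFs 54.1% were lower at 5 h and 1.33% fell. The median difference was -0.47, and the median log2 ratio was 3.46 at 5 h, against 3.58 at 4 h. It was -0.48 for 17 members on chromosomes I to X and -0.40 for 11 on chromosomes XI to XVI. Of the array's 30 members, SPO22 and GMC1 had no value in any library.

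HOP1, which lies on the axes of meiotic chromosomes, had 3.68, 4.81, 5.14, 5.42, 4.30, 3.69 and 2.35 at 1, 2, 3, 4, 5, 6 and 8 h and fell by 1.12. REC8, the meiotic cohesin subunit, had 3.76, 4.91, 5.47, 5.56, 4.48, 4.18 and 2.64 at the same times and fell by 1.08. Both had their highest value at 4 h and were still far above 0 h at 5 h. DMC1, the recombinase of meiosis, stood at 4.46 at 5 h and 5.14 at 4 h, and SPO11, which makes the double-strand breaks, at 2.53 at 5 h and 3.01 at 4 h. ZIP1, of the synaptonemal complex, stood at 4.27 at 5 h, against 4.75 at 4 h. MEI4, a break factor, was nearly back at its 0 h level, at 0.13 at 5 h, against 1.03 at 4 h. The members that did not go down were REC102, a partner of Spo11, at 3.56 at 5 h and 3.48 at 4 h, and GMC2, which helps assemble the synaptonemal complex, at 3.74 at 5 h and 3.68 at 4 h.

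Set side by side, the medians of middle and early genes differed by 2.38 in the step. Of the 60 middle genes, 55 had a larger difference than REC102, the highest of the 28 early genes, at 0.08. At 4 h, 20 of the 28 early genes stood above the median of the middle genes, and at 5 h 4 did. The gap depended on how the libraries were scaled. After quantile normalization, which gives each library the same distribution, the medians were 0.94 for middle and -1.36 for early genes, 25 middle genes rose and 15 early genes fell. Both directions were the same under that scaling, and with libraries centred or brought to the same median absolute deviation.

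**Figure D2:**
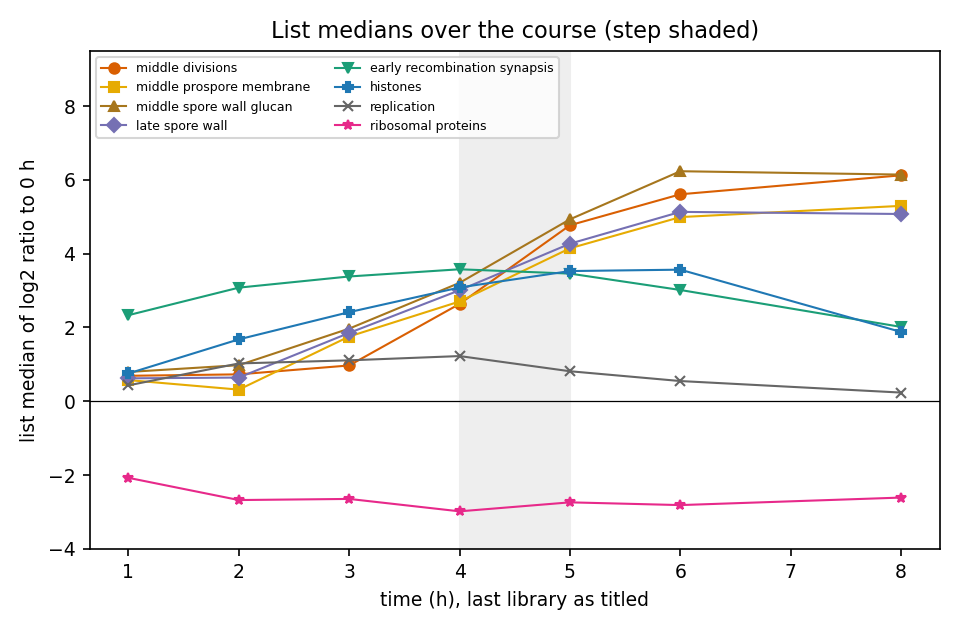
Median log2 ratio to 0 h of 8 gene lists (vertical axis) at each time point (horizontal axis), with the step from 4 h to 5 h shaded; points have no error bars, since each time has 1 array. The middle and late lists lie below the early list at 4 h and above it at 5 h, and ribosomal protein genes lie below -2 throughout.

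The position of this step in the course was read from the 5 hourly steps between 1 h and 6 h. For 33 of 59 middle genes measured at each of these times the step from 4 h to 5 h was the largest increase, and for 15 it was the step from 3 h to 4 h. Among all ORFs with values at these times, it was the largest increase for 1248 of 5503, or 22.7%. For 16 of 28 early genes it was the largest decrease, and for the other 12 that was the step from 5 h to 6 h, against 24.6% of all ORFs with the largest decrease in the step from 4 h to 5 h. The highest value was read from 1 h to 6 h only, without the 8 h array. The early genes had it at 4 h in 25 of 28 cases, against 811 of 5503 ORFs. Among middle genes 52 of 59 had it at 6 h, against 1382 of 5503 ORFs. The median log2 ratio of the middle genes was higher still at 8 h, at 5.67 against 5.30 at 6 h. A highest value at 4 h requires a lower one at 5 h, so that count partly restates the step.

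Genes of M phase control were mixed. Of 25 members of the list of the anaphase-promoting complex and mitotic exit, 6 rose, against 4.75% of all ORFs, and none fell, with a median of 0.69. CDC20, the activator of the complex at anaphase, stood at 0.24, -0.49, -0.72, 0.10, 1.74, 2.77 and 4.52 at 1, 2, 3, 4, 5, 6 and 8 h. The subunit CDC26 stood at 3.52 at 5 h and 1.84 at 4 h, and the subunits APC5 and APC11 rose by 1.20 and 1.11. SPO12, which helps release the phosphatase Cdc14, stood at 3.35 at 5 h, against 1.67 at 4 h. SPO12 and CDC5, which also rose, are counted among the middle genes too. Others were lower at 5 h, such as the subunit DOC1 at 2.53 against 3.20 at 4 h, and NET1, which holds Cdc14 in the nucleolus, at 0.28 against 0.91 at 4 h. Of 18 cyclins and regulators of mitotic control, 4 rose, against 4.75% of all ORFs, and none fell. The 4 were CLB1, CLB3, CLB4 and CLB5, of which CLB5 is deleted in these cells. The other members that rose, CLB1, CLB3 and CLB4, are also counted among the middle genes. The G1 cyclin CLN1 stood at -0.78 at 5 h and -0.47 at 4 h, and SIC1, an inhibitor of Clb kinase, at -0.82 at 5 h and -0.56 at 4 h.

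Of 16 genes of sister cohesion and segregation 3 rose and 2 fell, against 4.75% and 1.33% of all ORFs, and 11 lay between, with a median of -0.46. It was -0.48 for 13 members on chromosomes I to X and -0.25 for 3 on chromosomes XI to XVI. PDS1, the securin, stood at 0.75, 1.46, 2.19, 2.58, 4.09, 4.11 and 4.19 at 1, 2, 3, 4, 5, 6 and 8 h and levelled off after the step. MAM1, the monopolin subunit made in meiosis, stood at 6.30 at 5 h and 4.84 at 4 h, and SGO1, the shugoshin that guards centromeric cohesin, at 3.73 at 5 h and 2.68 at 4 h. The cohesin ring subunit SMC3 stood at 1.02 at 5 h, against 2.27 at 4 h, and fell with REC8. RAD61, which releases cohesin, stood at -0.19 at 5 h and 0.67 at 4 h. MAM1 is also counted among the middle genes and REC8 among the early genes. Of 30 kinetochore and spindle genes 2 rose, or 6.67%, near the 4.75% of all ORFs, and none fell. Their median was 0.22, which was 0.11 on chromosomes I to X and 0.34 on chromosomes XI to XVI. SPC42, of the central plaque of the spindle pole body, stood at 3.57 at 5 h and 1.69 at 4 h, and KIP3, a kinesin that shortens microtubules, at 2.28 at 5 h and 1.17 at 4 h. BIR1, of the Aurora kinase complex, had the lowest difference of the list, with 0.11 at 5 h and 0.63 at 4 h.

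Genes of DNA replication were mostly lower at 5 h, 39 of 45 against 54.1% of all ORFs, with a median of -0.35, and none of them fell by 1. The median was -0.43 for 25 members on chromosomes I to X and -0.19 for 20 on chromosomes XI to XVI. POL1, of the polymerase that primes DNA synthesis, stood at 0.89 at 5 h and 1.75 at 4 h, and RFA1, the large subunit of the single-strand binding protein, at 0.77 at 5 h and 1.59 at 4 h. ORC3, of the origin recognition complex, was the member that rose, by 1.25, and ORC1 had a difference of 0.80. Each lies next to a sporulation gene that rose, SPO75 with 2.02 beside ORC3 and SMA2 with 2.34 beside ORC1. The part of these neighbours in the values read for ORC3 and ORC1 was not tested. In the list of nucleotide supply and DNA damage genes 1 of 19 rose, against 4.75% of all ORFs, and none fell. Their median was -0.32. RNR4, a small subunit of ribonucleotide reductase, stood at -0.76 at 5 h, against -1.90 at 4 h, whereas RNR1, a large subunit, stood at 1.04 at 5 h and 1.71 at 4 h. Of the other subunit genes, RNR2 stood at -1.71 at 5 h and -1.79 at 4 h, and RNR3 at 0.75 at 5 h and 1.12 at 4 h.

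Histone genes were higher at 5 h in 11 of 11 cases, against 45.9% of all ORFs, but by less than 2-fold each, with differences between 0.07 and 0.94. HTA1, which codes for H2A, stood at 0.24, 1.91, 2.42, 3.10, 4.04, 4.00 and 1.97 at 1, 2, 3, 4, 5, 6 and 8 h. HTB1, the H2B gene next to it, stood at 4.34 at 5 h and 4.15 at 4 h, so the neighbours differed in the step. Core histone genes such as HTA1 and HTA2 come in near-identical pairs, whose signals the array may not separate. HTA1 and HTB1 are not such a pair, and not every list member has such a partner, CSE4 being an example.

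**Figure D3:**
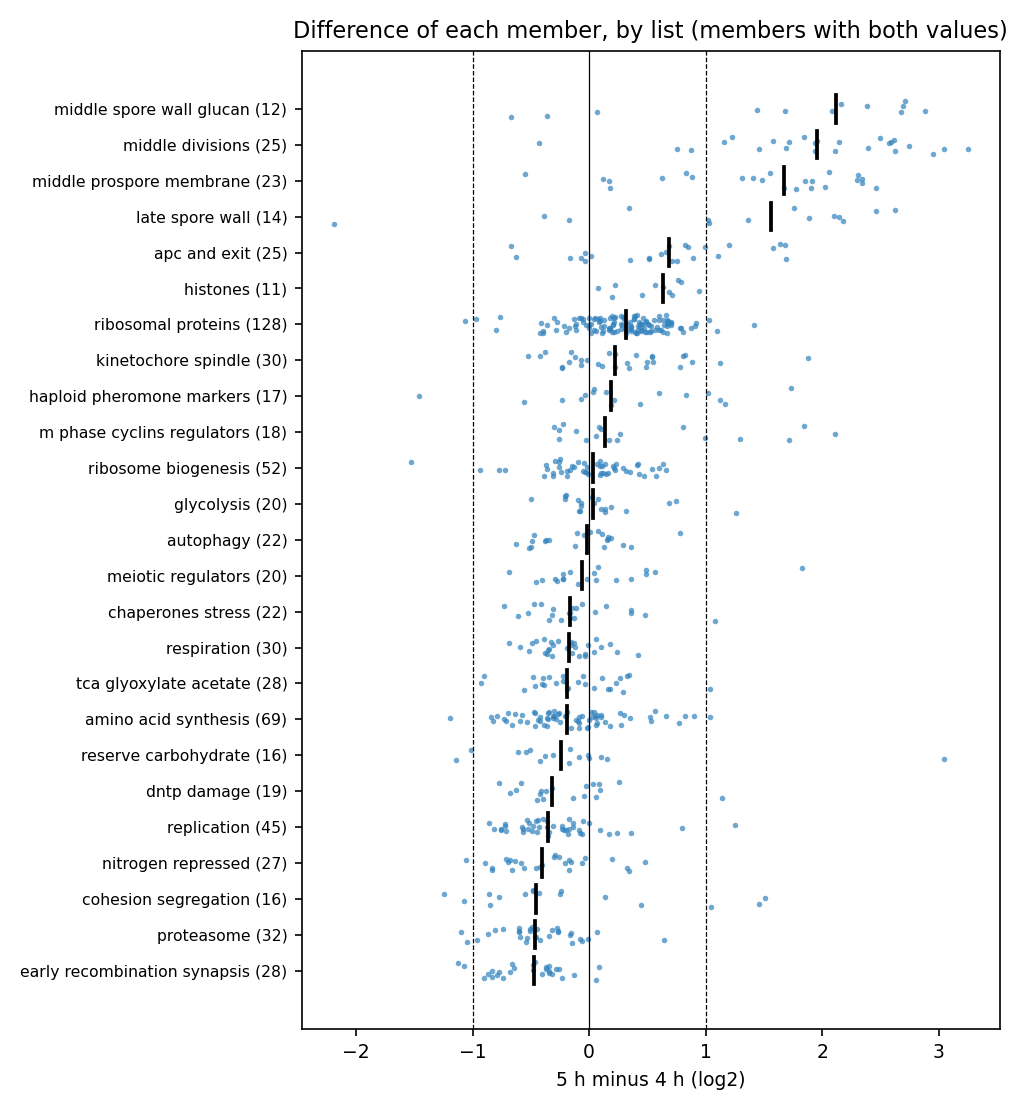
Difference in log2 ratio, 5 h minus 4 h (horizontal axis), for each member with both values of 25 lists, with their number in brackets; black bars are list medians, the solid line is 0 and the dashed lines mark 1 and -1. The 3 middle lists and the late list have medians above 1, and the other 21 lists have medians between -0.47 and 0.69.

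Proteasome genes were lower at 5 h in 30 of 32 cases, against 54.1% of all ORFs, with a median of -0.46. Of them 2 fell and none rose, against 1.33% and 4.75% of all ORFs. RPT6, a base ATPase, stood at -0.27 at 5 h and 0.83 at 4 h, and RPN6, a lid subunit, at -0.09 at 5 h and 0.95 at 4 h. RPN9 went the other way, at 0.42 at 5 h, against -0.22 at 4 h. Their median was -0.50 on chromosomes I to X and -0.27 on chromosomes XI to XVI. Autophagy genes had no member past 2-fold among 22, against the same 2 shares of all ORFs, and a median of -0.02. ATG8, the membrane-conjugated protein of autophagosomes, stood at 4.25 at 5 h and 3.89 at 4 h.

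Ribosomal protein genes were far below 0 h on both arrays and slightly less so at 5 h. Their median log2 ratio was -2.74 at 5 h, against -2.98 at 4 h, and 102 of 128 members were higher at 5 h, against 45.9% of all ORFs, with a median difference of 0.32. Of them 3 rose, or 2.34%, against 4.75% of all ORFs, and 1 fell. For 81 of 125 members this was the largest hourly increase up to 6 h, against 22.7% of all ORFs. The median difference was 0.18 on chromosomes I to X and 0.46 on chromosomes XI to XVI. From 3 h to 6 h the median difference was -0.10, with 83 of 129 members lower at 6 h. The paralogs RPL17A and RPL17B, on chromosomes XI and X, went apart: RPL17A stood at -1.99 at 5 h and -3.09 at 4 h, and RPL17B at -4.19 at 5 h and -3.13 at 4 h. At 6 h RPL17A stood at -1.94, while RPL17B was back at -3.27. Such near-identical genes are hard to separate by hybridization, so each value is uncertain. RPL36A had the largest difference of the list, at -0.68 at 5 h, against -2.10 at 4 h. In ribosome biogenesis 1 of 52 members fell, the helicase DBP8, and none rose, against 1.33% and 4.75% of all ORFs. Their median was 0.03.

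The 6 metabolic lists had medians between -0.40 and 0.03. Lower at 5 h were 9 of 20 glycolytic, 24 of 30 respiratory, and 18 of 28 tricarboxylic acid and glyoxylate genes. So were 44 of 69 amino acid synthesis, 23 of 27 nitrogen-repressed and 13 of 16 reserve carbohydrate genes, against 54.1% of all ORFs. Glycolytic genes had a median of 0.03, and of 20 members 1 rose, against 4.75% of all ORFs. That was HXK2, the main hexokinase of growth on glucose, at -2.62 at 5 h and -3.88 at 4 h. HXK2 stood at -3.33 at 6 h and -2.68 at 3 h, so the direction was opposite on those arrays. Respiratory genes had no member past 2-fold among 30, against 4.75% of all ORFs that rose and 1.33% that fell. Their median was -0.17, which was -0.29 on chromosomes I to X and -0.06 on chromosomes XI to XVI. In the tricarboxylic acid and glyoxylate list 1 of 28 rose, against 4.75% of all ORFs, and none fell. Their median was -0.19. PCK1, of gluconeogenesis, was the member that rose, at -1.50 at 5 h and -2.54 at 4 h. ACS1, acetyl-CoA synthetase, stood at 0.24 at 5 h, against 1.17 at 4 h.

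Genes repressed by good nitrogen sources had a median of -0.40, with -0.45 on chromosomes I to X and -0.16 on chromosomes XI to XVI. Of 27 members 1 fell, against 1.33% of all ORFs. That was DAL5, an allantoate permease, at 4.89, 4.38, 3.48, 1.97, 0.92, 1.08 and 1.92 at 1, 2, 3, 4, 5, 6 and 8 h, whose decline had begun hours before. MEP2, an ammonium transporter, stood at 2.22 at 5 h and 3.11 at 4 h. Of 69 amino acid synthesis genes 1 rose and 1 fell, against 4.75% and 1.33% of all ORFs. Their median was -0.19, which was -0.28 on chromosomes I to X and 0.01 on chromosomes XI to XVI. ILV5, of branched-chain synthesis, stood at 0.95 at 5 h and -0.09 at 4 h, and ARO3, of aromatic synthesis, at -1.88 at 5 h and -0.69 at 4 h. At 6 h ILV5 stood at 0.91, while ARO3 was back at -0.92.

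Of 16 reserve carbohydrate genes 1 rose and 2 fell, against 4.75% and 1.33% of all ORFs, and 13 lay between, with a median of -0.24. The member that rose was SGA1, which is also counted among the middle genes. TPS2, of trehalose synthesis, stood at -1.97 at 5 h and -0.82 at 4 h, and GSY2, the main glycogen synthase, at -2.09 at 5 h and -1.08 at 4 h. Both TPS2 and GSY2 stayed low at 6 h, at -1.74 and -2.17. Of 22 chaperone and stress genes 1 rose, against 4.75% of all ORFs, and none fell, with a median of -0.16. The member that rose was CTT1, the cytosolic catalase, at -1.52 at 5 h, against -2.60 at 4 h.

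Haploid and pheromone genes, which mark cells that are not diploids in meiosis, had 4 rises and 1 fall among 17 members with both values, against 4.75% and 1.33% of all ORFs, and a median of 0.19. On chromosomes XI to XVI 3 of 6 members rose, with a median of 0.81, and on chromosomes I to X 1 of 11 rose, with a median of 0.15. STE18, the gamma subunit of the pheromone G protein, stood at 1.75, 1.39, 1.47, 0.78, 2.51, 3.32 and 3.34 at 1, 2, 3, 4, 5, 6 and 8 h. STE4, the beta subunit, stood at 2.79 at 5 h and 1.78 at 4 h, and STE3, the receptor for a-factor, at 1.69 at 5 h and 0.52 at 4 h. MF(ALPHA)1, which codes for the alpha-factor pheromone, stood at 0.66 at 5 h and -0.47 at 4 h. GPA1, the alpha subunit of the same G protein, was lower at 5 h, at 1.39 against 1.94 at 4 h. FUS3, the MAP kinase of mating, stood at -2.15 at 5 h and -0.69 at 4 h, and was back at -0.69 at 6 h. The list median was 0.66 at 5 h and 0.24 at 4 h. What part cells outside meiosis play in the step was not tested.

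The arrays at 3 h and 6 h were not used to find the step, and the ORFs past 2-fold were read on them. From 3 h to 6 h, 630 ORFs rose (11%) and 327 fell (5.7%). Of the 266 ORFs that rose from 4 h to 5 h and had values at 3 h and 6 h, 233 also rose from 3 h to 6 h, with a median of 2.58. Of the 76 that fell, 21 also fell from 3 h to 6 h, none rose, and the median was -0.65. The shared ORFs are 86.0% of those that rose in the step and 37.0% of those that rose from 3 h to 6 h; for the falls the shares are 27.6% and 6.42%. With only the array at 5 h replaced, 513 ORFs were at least 2-fold higher at 6 h than at 4 h (8.93%) and 159 lower (2.77%). With only the array at 4 h replaced, 404 were at least 2-fold higher at 5 h than at 3 h (7.1%) and 194 lower (3.41%).

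The return at 6 h showed the same difference between rises and falls. Of the ORFs that fell, 45 of 76 had regained at least 50% of the difference by 6 h, whereas 11 of 268 that rose had lost as much. Both counts share the 5 h array with the step, so a single deviating spot at 5 h is counted as a fall or rise and as a return. Of the ORFs that rose, 230 were higher still at 6 h.

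**Figure D4:**
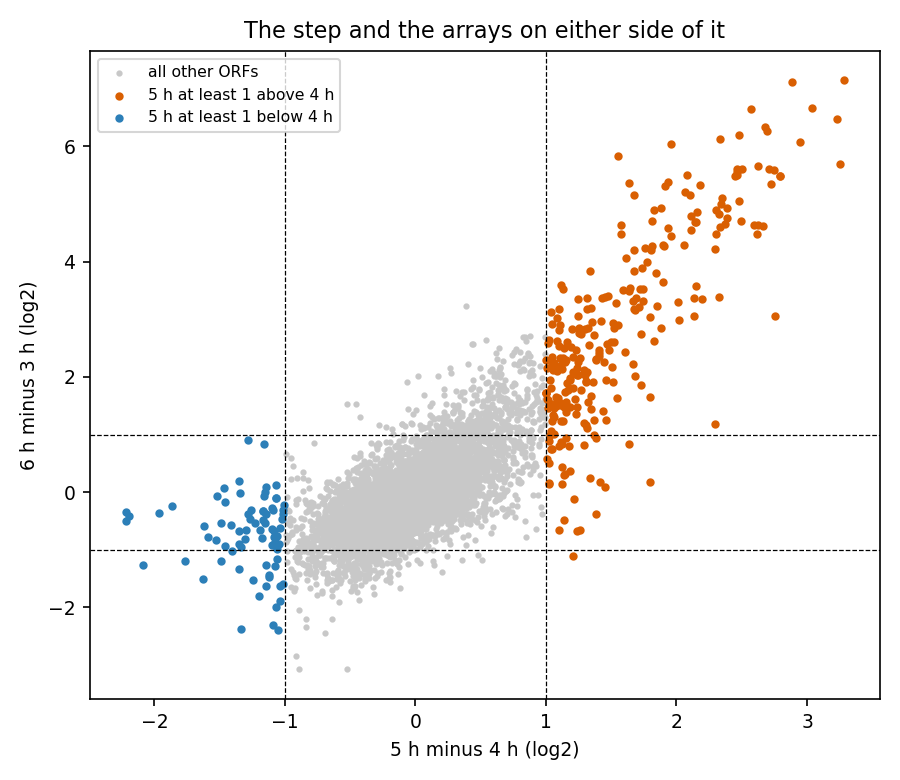
Difference 6 h minus 3 h (vertical axis, log2) against difference 5 h minus 4 h (horizontal axis, log2), 1 point per ORF; dashed lines mark 1 and -1. Of the ORFs that rose in the step 233 lie above the upper line, and of the 76 that fell 21 lie below the lower line.

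The largest rises and falls were of different kinds. Among ORFs with a symbol and values in all 7 libraries, 9 of the 12 largest rises belong to the middle or late lists. The others were ECM23 and GAT4, both GATA-type zinc finger genes, and BIL2. ECM23 stood at 6.50 at 5 h, against 3.71 at 4 h. GAT4 stood at 1.46, 2.94, 2.46, 0.92, 3.68, 5.53 and 7.24 at 1, 2, 3, 4, 5, 6 and 8 h, with its lowest value just before the step. BIL2 stood at 4.96 at 5 h and 2.24 at 4 h. The 12 largest falls among the same ORFs were COG7, SWC3, SPS100, ARP2, YPT35, AMD2, PKP2, YIP1, DBP8, VPS64, AFG1 and CTM1, with differences between -2.22 and -1.49, and 1 of them is in a middle or late list. COG7, of the Golgi tethering complex, stood at -0.31, -0.26, -0.65, -0.62, -2.84, -1.15 and -1.18 at 1, 2, 3, 4, 5, 6 and 8 h. SWC3, of the complex that deposits histone H2A.Z, stood at 0.26, 0.13, 0.24, 0.29, -1.93, -0.10 and -0.0018 at the same times. ARP2, of the actin-nucleating complex, had -3.14 at 5 h and -1.05 at 4 h, and stayed lower than before, at -2.03 at 6 h. All 12 were higher at 6 h than at 5 h, by 0.45 to 1.96, as were the 12 largest rises, by 0.41 to 1.85. The falls were picked by a difference that holds the same 5 h value, so their return partly follows from that choice.

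All 12 of these falls lie on chromosomes I to X, as did 70 of all 76. The falls were 2.28% of the ORFs measured there and 0.228% on chromosomes XI to XVI, where 6 ORFs fell. The rises were spread more evenly, with 119 on chromosomes I to X (3.88%) and 152 on chromosomes XI to XVI (5.76%). From 5 h to 6 h the order was reversed, with rises of 3.06% on chromosomes I to X and 1.15% on chromosomes XI to XVI. Both steps share the 5 h array, so a low value at 5 h enters each of them and the reversal is no separate result. The split into these 2 sets was chosen after the values were seen. The files give no spot position, so what tells the sets apart on the array was not tested.

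**Figure D5:**
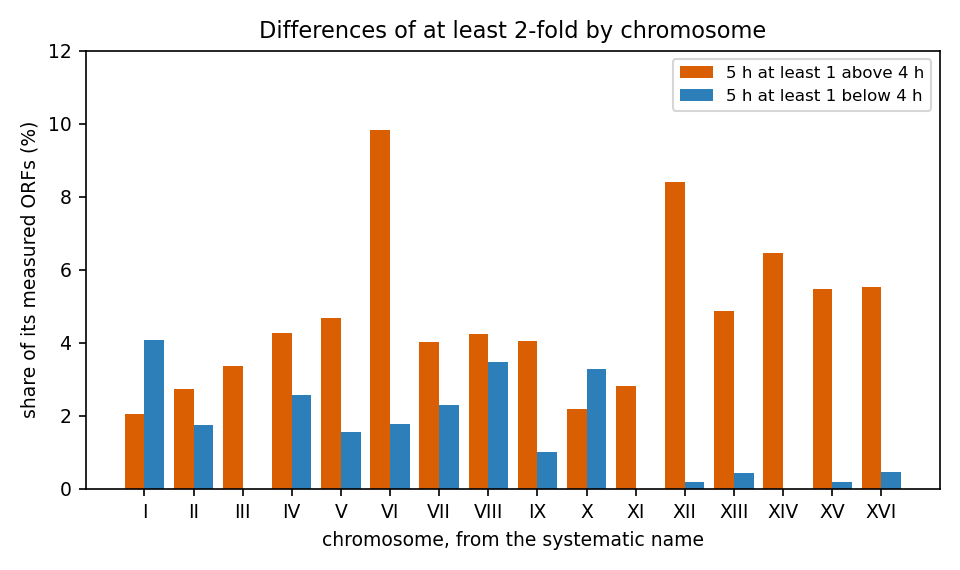
Share of measured ORFs (vertical axis, %) that were at least 2-fold higher (orange) or lower (blue) at 5 h than at 4 h, for each of the 16 chromosomes in order (horizontal axis). Falls lie between 0% and 4.08% on chromosomes I to X and between 0% and 0.460% on chromosomes XI to XVI.

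Most rises lay outside the lists, which hold only 765 of the 6141 ORFs on the array. Members of any of the 25 lists were 79 of the 271, and 56 were in a middle or late list. Of the 271, 57 have no gene symbol in the reference table, against 877 of all 5701 ORFs with both values. The largest difference of all was that of the unnamed ORF YPR077C, at 0.55, 0.83, 1.20, 4.09, 7.37, 8.35 and 8.76 at 1, 2, 3, 4, 5, 6 and 8 h. Its neighbour YPR078C stood at 7.70 at 5 h, against 4.47 at 4 h. Neighbouring ORFs often rose together: of 246 that rose and have a place in the reference table, 52 lay next to another that rose, or 21.1%, against 8.49% of all 5286 ORFs placed. Examples were SPS1 and SPS2, CDA1 and CDA2, LOH1 and IRC18, CLB4 and PNP1, and ORC3 and SPO75. Whether each pair is 2 transcripts or 1 read by both probes was not tested. Before the step the ORFs that rose were not all low, since 157 of 271 were already at least 2-fold above 0 h at 4 h. Among all 5701 ORFs with both values, 1015 were so at 4 h. At 5 h the counts were 224 of 271 and 1074 of 5701. The rises were picked by a difference that holds the 5 h value, so the count of 224 partly follows from that choice.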

How the data were processed

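The deposited values are log2 ratios from 2-colour arrays: per the labels, poly(A) RNA of each time point was labelled with Cy5 and a pool of mRNA of the course with Cy3, and the authors divided each ratio by that at 0 h. The background correction, spot filter, normalization and genome build are not stated in the labels or the table. Nothing was rescaled. The value at 4 h was subtracted from that at 5 h for ORFs with both, and a difference of at least 1 log2 unit was counted. There was no test, since each time has 1 array. Of 6141 ORFs, 5655 matched a locus tag of the RefSeq table of R64, used for symbols and neighbours; chromosomes come from systematic names. Between 331 and 516 values were missing per library.

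The members and the 25 gene lists, which share some genes, were chosen with earlier results of these data known. The names SAE3 and HED1 and 4 ribosomal protein genes matched no row. The genes named were fixed by rule: 18 key genes, the 12 largest and 12 smallest differences, the 3 highest and 3 lowest of each list, the 2 ORFs on each side of a threshold, and neighbours. SSP2, SPR28, SPO20, SPO74, DTR1, STE4, APC5, APC11, YPR077C and YPR078C were added after their values were seen. The counting step was tested on simulated data. Python 3.11.15, numpy 2.4.6, pandas 2.3.3 and matplotlib 3.10.9 were used. Promoter motifs were not analysed here.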

Additional observations from a re-analysis of the deposited data

How the results depend on the processing

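With 1 array per time, what limits every value is the number of arrays; the signal over background behind a ratio is not known here. Median centring, scaling to an equal median absolute deviation, keeping ORFs measured in all 7 libraries or in the reference table, and subtracting each chromosome's median left the counts of rises and falls within 1.5 times of 271 and 76. Rises were 142 after quantile normalization, 421 for the mean of 5 h and 6 h minus that of 3 h and 4 h, 630 for 6 h minus 3 h, 513 for 6 h minus 4 h, 115 at a size of 1.5 and 57 at a size of 2. Falls were 327 for 6 h minus 3 h, 159 for 6 h minus 4 h, 194 for 5 h minus 3 h, 12 at a size of 1.5 and 4 at a size of 2. Wider spans hold more time, and larger sizes fewer ORFs, by construction. The middle median of 1.91 was 0.94 after quantile normalization, 4.48 for 6 h minus 3 h, 3.30 for the means of neighbouring times, 2.80 for 6 h minus 4 h and 3.56 for 5 h minus 3 h. Of the middle genes 25 rose after quantile normalization, and 1, 2 and 1 fell after quantile normalization, for 6 h minus 3 h and for 6 h minus 4 h. The early median was -1.36 after quantile normalization, and 6, 15, 4, 7 and 0 early genes fell with equal median absolute deviations, after quantile normalization, for 6 h minus 3 h, 6 h minus 4 h and 5 h minus 3 h. Why quantile normalization moved these was not tested beyond its construction, which forces all libraries to the same distribution. Among named genes past 2-fold in the step, HXK2 alone turned its direction, at -0.65 for 6 h minus 3 h, and under the other settings none did. The spans that leave out the array at 5 h or at 4 h and the chromosome medians were chosen after seeing the data. The planned comparison of promoter motifs was not run. No paired analysis was possible because each time point has 1 library and no replicate.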
